A study of Oryza sativa with 10 samples.

Results

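OsNAC10 and OsNAC6 are related rice transcription factors that the study expressed, each in its own transgenic line, from the same root promoter. The comparison described here sets roots of the OsNAC10 line directly against roots of the OsNAC6 line. Both sides carry a promoter, an epitope tag and a selection marker of the same kind, and they differ in the NAC gene. The lines were also transformed separately, so the NAC gene cannot be told apart from other differences between the lines. The libraries were taken by their sample titles and number 4 of the 10 in the series: 2 of RCc3:OsNAC10-myc roots and 2 of RCc3:OsNAC6-myc roots. In both lines the RCc3 promoter, which is active mainly in roots, drove the NAC coding sequence joined at its end to a MYC tag, with a Bar gene for selection. The background was the japonica cultivar Illmi, and 2 libraries of non-transgenic (NT) Illmi roots are quoted for orientation. All plants were grown in soil in a greenhouse, 3 to a pot, and were held under water for 3 days before harvest, the NT plants included. The sample labels give an age of 20 days. The lines were picked for a high level of tagged protein, and the sources do not say whether the 2 libraries of a group come from 1 line or more. With 2 libraries a group, p-values and SEs measure only the spread between replicate libraries. That spread was pooled over all 10 libraries of the series, so it can understate the spread of a group whose replicates agree less well.

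NAC factors are plant transcription factors that bind DNA through a conserved domain at their start, while the rest of the protein, which differs widely between members, activates transcription. Several rice members respond to drought and salt, and their expression in roots is known to alter root thickness. In earlier overexpressing plants, not those sequenced here, OsNAC6 went with a larger stele and aerenchyma, the air spaces that carry oxygen through a flooded root, and OsNAC10 with a larger stele, cortex and epidermis. The question put to the transcriptomes below is which root transcripts differ between these 2 lines.

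The values are FPKM, fragments mapped to a transcript, scaled to its length and to the size of the library. Their sums were 747715 and 782112 in OsNAC10 roots, against 789304 and 751247 in OsNAC6 roots and 732809 and 730218 in NT roots. The files hold no read counts, so the counting error of a value cannot be given from them. The 2 OsNAC6 libraries agreed less well with each other than the 2 OsNAC10 libraries did. Among 582 transcripts of at least 200 FPKM, the log2 difference between replicates had a median absolute deviation of 0.107 in OsNAC10, against 0.305 in OsNAC6 and 0.0669 in NT. OsNAC6 replicate 2 correlated at 0.987 with OsNAC10 replicate 1 and at 0.983 with the other OsNAC6 library, on the log2 scale over the tested transcripts. It was as close to other lines of the series, at 0.988 with OsNAC9 replicate 1 and 0.985 with OsNAC5 replicate 1. Of 5 root markers, none was called between the lines or had an unadjusted limma p under 0.05, and their summed level was 3811 and 3973 FPKM in OsNAC10, against 3882 and 2739 FPKM in OsNAC6. The lower sum of OsNAC6 replicate 2 came mostly from RCc3 itself, at 2545 and 2667 FPKM in OsNAC10 and at 2571 and 1872 FPKM in OsNAC6. The silicon transporter Lsi1 was likewise lower in that library, at 955 and 996 FPKM in OsNAC10, against 912 and 617 FPKM in OsNAC6. The fifth marker, OsAMT1;2, was under 0.1 FPKM in all 4 libraries. Of 63 markers of green tissue, 30 could be tested and 1 was called, and their sum lay between 56.3 and 63.1 FPKM in the 4 libraries. That list did not take in Os02t0152400-01, similar to a ribulose bisphosphate carboxylase. It was at 6.95 and 7.19 FPKM in OsNAC10, against 68.0 and 48.5 FPKM in OsNAC6 and 10.95 and 11.4 FPKM in NT. The sum is therefore not a full check for green tissue. The part of the difference between the 2 OsNAC6 libraries in the results was not tested beyond leaving out each library in turn.

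The transgenes were read first, as a check of the labels. OsNAC10 (Os11t0126900-01, chromosome 11) was at 35.1 and 34.7 FPKM in OsNAC10 roots, against 24.98 and 22.9 FPKM in OsNAC6 roots and 27.4 and 27.1 FPKM in NT roots. The OsNAC10 libraries held its 2 highest values of the series. The log2 difference was 0.53 ± 0.072 (SE, limma adjusted p = 0.00667), which is below the 1.5-fold limit used for calls. Without OsNAC6 replicate 1 it was 0.59 and passed that limit. OsNAC6 (Os01t0884300-01, chromosome 1) was at 75.9 and 89.02 FPKM in OsNAC10 roots, against 128.5 and 123 FPKM in OsNAC6 roots and 96.5 and 96.4 FPKM in NT roots. The OsNAC6 gene was called lower in OsNAC10, with a log2 difference of -0.60 ± 0.092 (SE, limma adjusted p = 0.0106), close to the limit. The call was lost without OsNAC10 replicate 1 (-0.49) and without OsNAC6 replicate 1 (-0.57). Both genes were thus highest in the line named for them, by less than 2-fold. The files do not separate transgene from endogenous transcript. The other family members of the series did not pass the test: OsNAC9 was at 19.3 and 20.7 FPKM in OsNAC10 and 35.7 and 23.4 FPKM in OsNAC6, and OsNAC5 at 22.9 and 23.8 FPKM in OsNAC10 and 16.7 and 20.9 FPKM in OsNAC6.

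Across the root transcriptome, 380 transcripts were called higher and 770 lower in OsNAC10 than in OsNAC6, which is 1.15% and 2.32% of the 33178 transcripts tested, or 3.47% in either direction. A call needed a limma adjusted p under 0.05 and a difference of at least 1.5-fold on log2(FPKM + 1), a scale that understates the change of low transcripts. The lower group was also the stronger one: 335 of its 770 members differed by at least 2-fold, against 107 of the 380 higher ones (1.01% and 0.323% of all tested). By an unadjusted p under 0.05 with the same fold, 687 (2.07%) would be higher and 1333 (4.02%) lower. The median difference over all tested transcripts was log2 -0.0012, and in every called transcript the 2 lines did not overlap. Over all tested transcripts, called or not, both OsNAC10 libraries lay above both OsNAC6 libraries in 22.2% and below both in 24.6%. NT roots lay nearer to OsNAC10 for 174 of the higher and 356 of the lower calls, and nearer to OsNAC6 for the other 206 and 414.

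These counts depended on single libraries. Leaving out 1 library at a time gave 227 higher and 527 lower calls without OsNAC10 replicate 1, 131 and 342 without OsNAC10 replicate 2, 320 and 534 without OsNAC6 replicate 1, and 1408 and 1967 without OsNAC6 replicate 2. In all 4 of these fits 119 of the 380 higher and 288 of the 770 lower transcripts were called. With the 4 libraries fitted alone, the counts were 36 and 109. After centring each library on its median, 40.8% of calls were higher in OsNAC10, against 33.0% without centring.

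**Figure D1:**
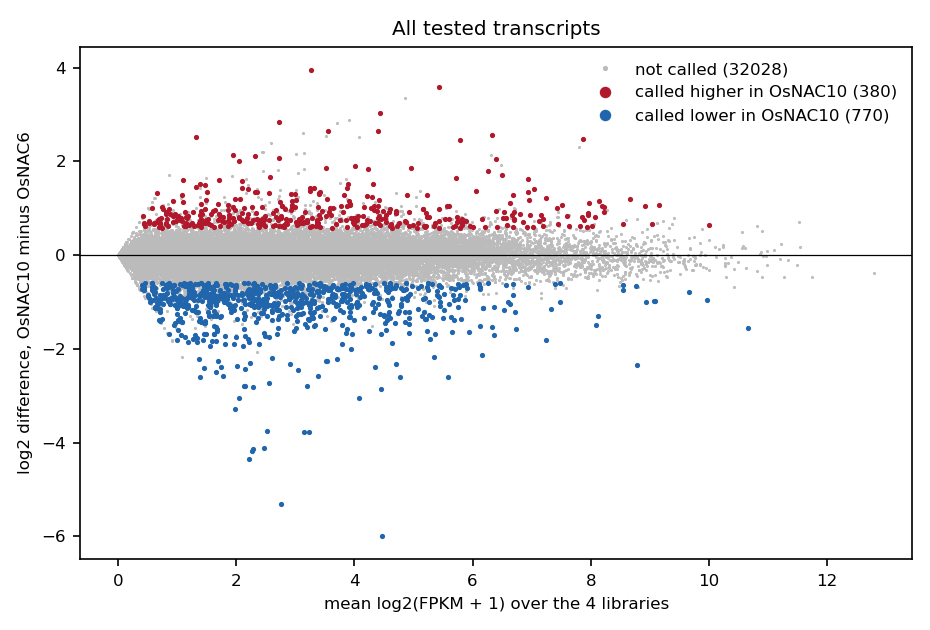
Log2 difference between OsNAC10 and OsNAC6 roots against the mean log2(FPKM + 1) of the 4 libraries, 1 point per tested transcript. The 380 transcripts called higher and the 770 called lower in OsNAC10 are coloured, and the lower ones reach further from 0.

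The transcripts that stood highest in OsNAC10 relative to OsNAC6 were, for the most part, close to the NT level in OsNAC10 roots. Of the 12 with the largest differences among named proteins, NT was within 1.5-fold of OsNAC10 in 8, within 1.5-fold of OsNAC6 in 2 and within neither in 2, on the log2(FPKM + 1) scale. The largest was Os03t0836800-01, similar to IAA-amino acid hydrolase, an enzyme class that frees auxin from its amino acid conjugates. It was at 31.9 and 42.0 FPKM in OsNAC10, against 1.76 and 1.16 FPKM in OsNAC6 and 36.7 and 37.7 FPKM in NT. The means differed 25.3-fold, or 3.94 ± 0.19 on the log2 scale (SE, limma adjusted p = 6.62e-05). A pair of neighbouring genes of chromosome 3, annotated as physical impedance induced proteins, was also among the 12. Os03t0103200-01 was at 142.5 and 155 FPKM in OsNAC10, against 13.85 and 9.43 FPKM in OsNAC6 and 155 and 156 FPKM in NT. Os03t0103100-01 was at 531 and 570 FPKM in OsNAC10, against 109.7 and 86.2 FPKM in OsNAC6 and 578 and 594 FPKM in NT. Both were thus several-fold lower in OsNAC6 roots than in the other 2 genotypes, and the pair may share reads.

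The same order was seen for a lipid transfer and hydrophobic seed protein (Os10t0552200-01), at 56.1 and 65.9 FPKM in OsNAC10, against 8.48 and 4.98 FPKM in OsNAC6. B12D family proteins are small and mitochondrial in rice. The member Os07t0604700-01 was at 50.4 and 53.1 FPKM in OsNAC10, against 7.99 and 6.88 FPKM in OsNAC6 and 40.7 and 46.8 FPKM in NT. A transcript similar to RCc3 (Os04t0554600-00), at a locus other than that of RCc3, was at 129 and 126 FPKM in OsNAC10, against 28.9 and 17.4 FPKM in OsNAC6 and 80.1 and 82.9 FPKM in NT. The hypersensitive-induced response protein gene Os01t0588100-00 was at 163 and 178 FPKM in OsNAC10, against 46.1 and 35.5 FPKM in OsNAC6. In each of these 4 transcripts both OsNAC10 libraries were at least 3-fold above either OsNAC6 library. The F-box protein gene Os06t0579600-01 departed from that pattern, at 6.54 and 8.23 FPKM in OsNAC10, against 1.05 and 1.07 FPKM in OsNAC6 and 1.28 and 1.40 FPKM in NT, so that OsNAC10 alone was high. Os02t0272400-00, similar to a predicted protein, had the same shape, at 20.3 and 21.3 FPKM in OsNAC10, against 4.84 and 5.19 FPKM in OsNAC6 and 5.75 and 5.36 FPKM in NT. The remaining 3 were a disease resistance response protein (Os11t0645400-01), another F-box protein (Os04t0571300-01) and a BURP domain protein (Os05t0217700-01), with log2 differences of 2.15, 2.11 and 1.90. Limma adjusted p-values of the 12 lay between 2.59e-05 and 0.0116. All but Os04t0571300-01 were called whichever of the 4 libraries was left out.

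**Figure D2:**
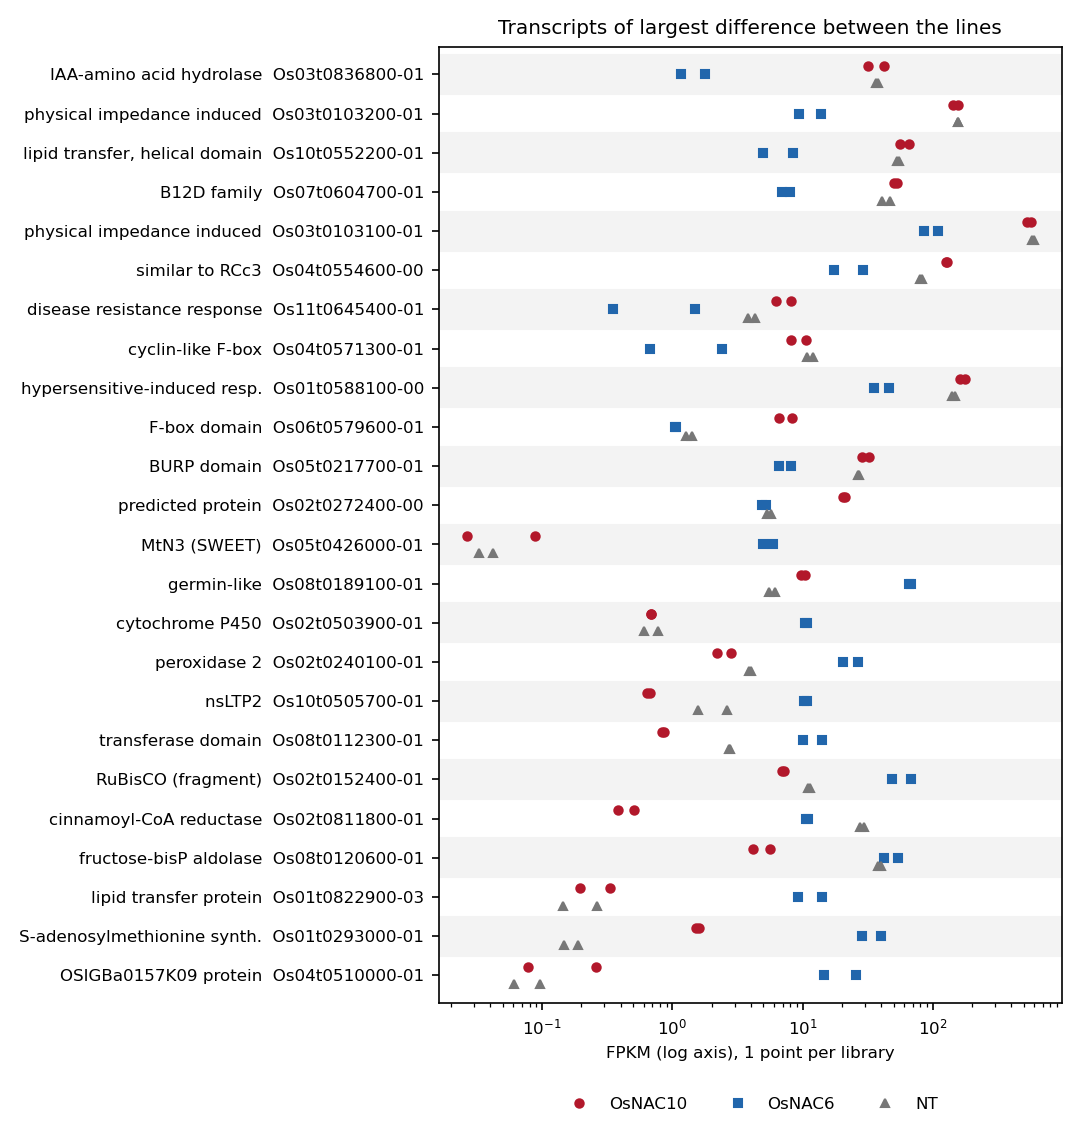
FPKM per library (log axis) of the 24 transcripts with the largest differences among named proteins, 12 higher and 12 lower in OsNAC10 than in OsNAC6, with NT beside them. OsNAC10 and OsNAC6 points are apart in each row, while NT sits with OsNAC10 in 8 of the higher and 5 of the lower rows.

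Of the 12 largest lower differences, 9 were of transcripts under 3 FPKM in both OsNAC10 libraries. Of these 12, NT was within 1.5-fold of OsNAC10 in 5, of OsNAC6 in 1 and of neither in 6, and all 12 were called whichever library was left out. Os04t0510000-01, whose description names only a clone, was at 0.259 and 0.0775 FPKM in OsNAC10, against 25.7 and 14.6 FPKM in OsNAC6 (log2 -4.13 ± 0.27, SE, limma adjusted p = 0.000269). A transcript similar to S-adenosylmethionine synthetase 1 (Os01t0293000-01) encodes the enzyme that makes the methyl donor used in ethylene, nicotianamine and lignin synthesis. It was at 1.60 and 1.51 FPKM in OsNAC10, against 39.85 and 28.7 FPKM in OsNAC6 and 0.146 and 0.188 FPKM in NT, a log2 difference of -3.77 ± 0.15 (SE, limma adjusted p = 3.78e-05). The SWEET-family sugar transporter gene Os05t0426000-01 was also high in OsNAC6 alone, at 0.0887 and 0.0264 FPKM in OsNAC10, against 5.87 and 4.94 FPKM in OsNAC6 and 0.0327 and 0.0420 FPKM in NT. Germin-like proteins are secreted and some make hydrogen peroxide. Os08t0189100-01 of this family was at 9.74 and 10.4 FPKM in OsNAC10, against 65.2 and 67.4 FPKM in OsNAC6 and 6.09 and 5.54 FPKM in NT.

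The next 2 members of this group had NT near or above OsNAC6, so that OsNAC10 was the low genotype. Cinnamoyl-CoA reductase leads phenylpropanoids into lignin. The transcript similar to it, Os02t0811800-01, was at 0.503 and 0.384 FPKM in OsNAC10, against 10.6 and 11.1 FPKM in OsNAC6 and 27.45 and 29.5 FPKM in NT (log2 -3.04 ± 0.099, SE, limma adjusted p = 1.25e-05). Fructose-bisphosphate aldolase splits a sugar phosphate in glycolysis, and Os08t0120600-01, similar to a cytoplasmic form, was at 4.18 and 5.65 FPKM in OsNAC10, against 54.4 and 41.9 FPKM in OsNAC6 and 38.2 and 40.0 FPKM in NT. The remaining 6 were lipid transfer proteins (Os01t0822900-03 and Os10t0505700-01), a peroxidase (Os02t0240100-01), a cytochrome P450 (Os02t0503900-01), a transferase (Os08t0112300-01) and a fragment of a ribulose bisphosphate carboxylase (Os02t0152400-01). Their log2 differences lay between -3.29 and -2.79. That order was not seen in the following members of the 6. Os01t0822900-03 was at 13.98 and 9.16 FPKM in OsNAC6, against 0.265 and 0.1445 FPKM in NT. Os02t0503900-01 was at 10.84 and 10.39 FPKM in OsNAC6, against 0.769 and 0.604 FPKM in NT. The peroxidase was at 26.5 and 20.3 FPKM in OsNAC6, against 4.005 and 3.88 FPKM in NT. The transferase was at 14.0 and 10.0 FPKM in OsNAC6, against 2.77 and 2.72 FPKM in NT. The carboxylase fragment was at 68.0 and 48.5 FPKM in OsNAC6, against 10.95 and 11.4 FPKM in NT. In these, OsNAC6 was the high genotype. With any description allowed, 3 larger differences appeared, all in conserved hypothetical proteins and all high in OsNAC6 alone. Os10t0328100-00 was at 1.70 and 1.84 FPKM in OsNAC10, against 227 and 134 FPKM in OsNAC6 and 0.126 and 0.477 FPKM in NT. Os07t0153150-02 was at 0.0931 and 0.0602 FPKM in OsNAC10, against 37.4 and 46.1 FPKM in OsNAC6. Os01t0845950-01 was at 0.156 and 0.112 FPKM in OsNAC10, against 19.5 and 19.7 FPKM in OsNAC6. The 2 last had the smallest limma adjusted p of the comparison (2.97e-06).

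Gene lists were then read against the share of all tested transcripts called, 1.15% higher and 2.32% lower. At an unadjusted limma p under 0.05 with no limit on the fold, the rule behind the unadjusted counts given beside some lists, 9.24% of all tested transcripts were higher and 11.9% lower. Lists were found by words in the transcript descriptions and, like the comparison itself, were drawn up with earlier results of these data known.

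**Figure D3:**
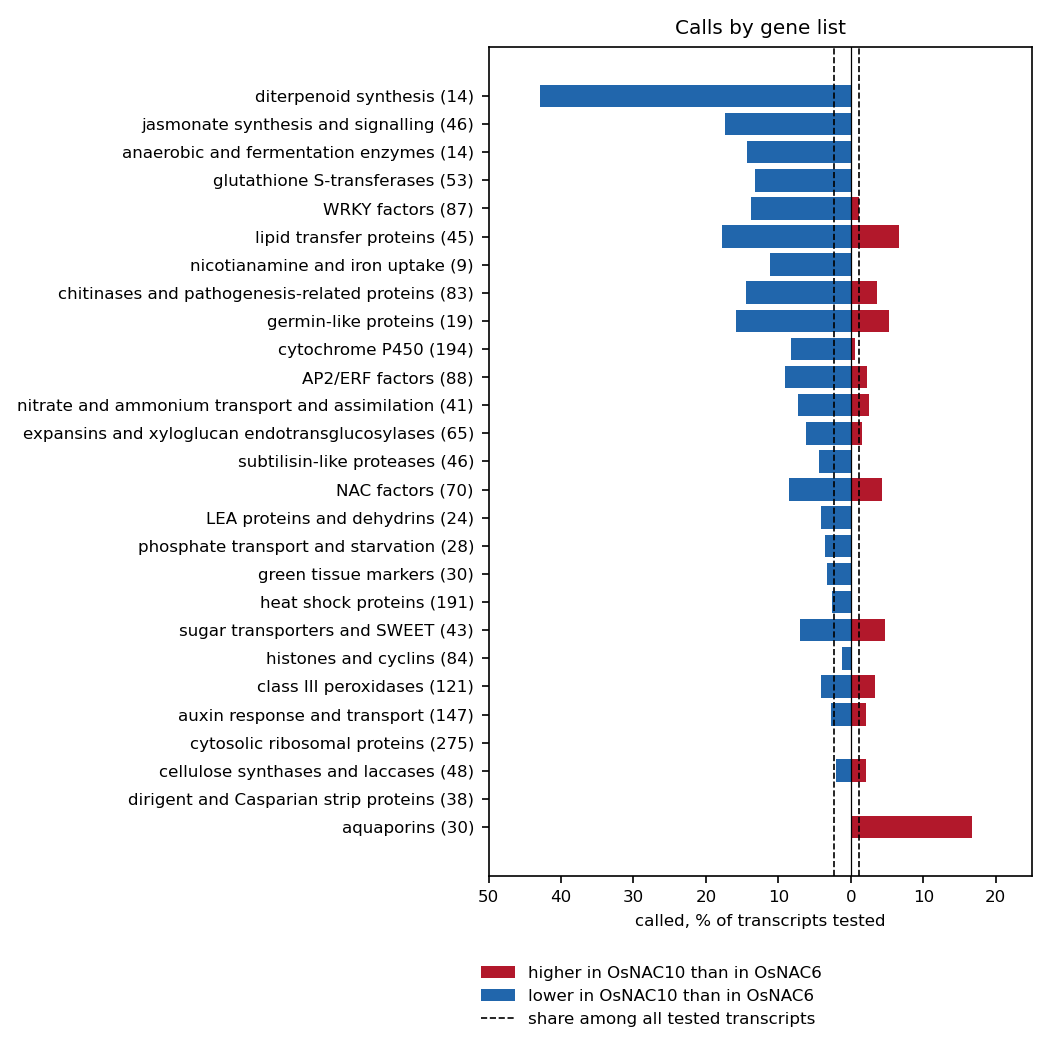
Percent of tested transcripts called higher (right) and lower (left) in OsNAC10 than in OsNAC6 for each gene list, with the number tested in brackets. Dashed lines give the shares among all tested transcripts, 1.15% and 2.32%, and the diterpenoid list, with 42.9% called lower, and the aquaporins, with 16.7% called higher, reach furthest on each side.

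Aquaporins are membrane channels for water and, in some branches, for silicon, boron or ammonia. Of 30 tested members, 5 (16.7%) were called higher in OsNAC10 and none lower, and the median log2 difference was 0.30. At an unadjusted limma p under 0.05 the numbers were 15 and 1, where the shares of all tested transcripts were 9.24% and 11.9%. Both OsNAC10 libraries lay above both OsNAC6 libraries in 16 of the 30 aquaporins and below in 2. Over all tested transcripts these shares were 22.2% and 24.6%. The summed level of the aquaporins was 4807 and 5132 FPKM in OsNAC10, against 3935 and 3327 FPKM in OsNAC6 and 3530 and 3617 FPKM in NT. Leaving out single libraries gave 4 to 7 higher and 0 or 1 lower calls, and with the 4 libraries fitted alone 1 was called higher.

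The tonoplast channel gene Os02t0658100-01 (TIP2;1), whose product sits in the vacuole membrane, was at 657 and 742 FPKM in OsNAC10, against 369 and 307 FPKM in OsNAC6 and 304 and 313 FPKM in NT (log2 1.05 ± 0.11, SE, limma adjusted p = 0.00249). Os04t0521100-01, a major intrinsic protein, was at 296 and 313 FPKM in OsNAC10, against 184 and 177 FPKM in OsNAC6 and 186 and 191 FPKM in NT. Os07t0448400-01, similar to the plasma membrane channel PIP2-5, was at 48.9 and 53.6 FPKM in OsNAC10, against 31.2 and 31.5 FPKM in OsNAC6 and 32.3 and 35.2 FPKM in NT. In these 3 channels OsNAC6 stood near NT and OsNAC10 stood above both. For Os06t0228200-01, a NIP channel of the branch that carries silicon, OsNAC6 was the low genotype, at 55.4 and 59.5 FPKM in OsNAC10, against 30.5 and 17.3 FPKM in OsNAC6 and 51.0 and 51.9 FPKM in NT. That call was made in 2 of the 4 fits without a library, and the root markers were also lower in OsNAC6 replicate 2. The low-level vacuolar channel TIP4;3 (Os01t0232000-00) was at 1.94 and 1.70 FPKM in OsNAC10, against 0.186 and 0.365 FPKM in OsNAC6 and 1.11 and 1.01 FPKM in NT.

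**Figure D4:**
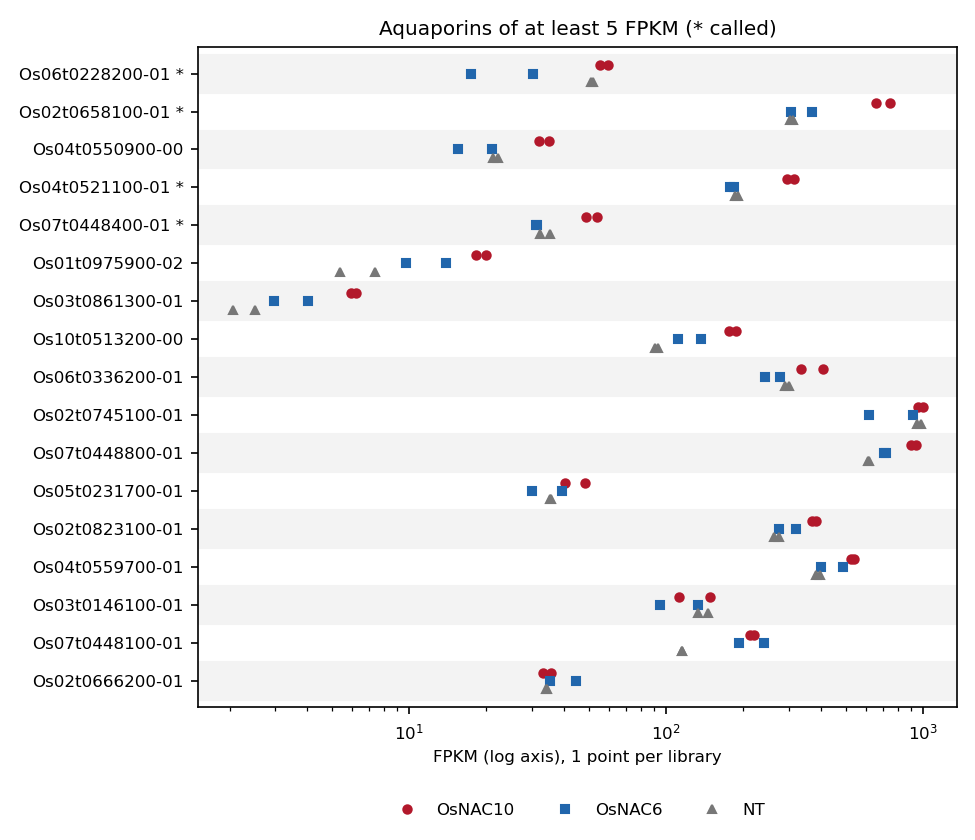
FPKM per library (log axis) of the 17 aquaporin transcripts with at least 5 FPKM, ordered by the log2 difference between OsNAC10 and OsNAC6, with NT beside them. An asterisk marks a called transcript, of which 4 are shown, each with both OsNAC10 points right of both OsNAC6 points.

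Labdane diterpenoids of rice, the momilactones and phytocassanes, are defence compounds made from geranylgeranyl diphosphate in steps encoded by gene clusters, and the early steps are shared in kind with gibberellin synthesis. Of 14 tested transcripts in the diterpenoid list, 6 (42.9%) were called lower in OsNAC10 and none higher, with a median log2 difference of -0.31. Of the 6, 2 belong to 1 locus, Os04g0178300, and so share reads. Leaving out either OsNAC10 library reduced the 6 to 3, and leaving out either OsNAC6 library kept the number at 6. At an unadjusted limma p under 0.05, 7 were lower and 1 higher. Fitted alone, the 4 libraries gave none. The calls gathered on chromosome 4 in the momilactone cluster, where 5 successive tested loci, Os04g0179100 to Os04g0180500, were called lower. No run of neighbouring lower calls was longer, and not all of these loci belong to the list.

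Through the cluster the order was OsNAC10 below OsNAC6, with NT near OsNAC6 or higher. Syn-copalyl diphosphate synthase makes the first dedicated ring structure, and its transcript Os04t0178300-01 was at 4.502 and 5.11 FPKM in OsNAC10, against 8.66 and 13.3 FPKM in OsNAC6 and 23.4 and 25.6 FPKM in NT (log2 -1.02 ± 0.18, SE, limma adjusted p = 0.0196). The next enzyme, syn-pimara-7,15-diene synthase (Os04t0179700-01), was at 1.08 and 1.26 FPKM in OsNAC10, against 2.58 and 3.23 FPKM in OsNAC6 and 10.5 and 11.6 FPKM in NT. The cytochrome P450 99A2 transcript (Os04t0180400-01) was at 0.204 and 0.398 FPKM in OsNAC10, against 1.64 and 1.43 FPKM in OsNAC6 and 3.40 and 4.04 FPKM in NT. All 3 were thus lowest in OsNAC10 and highest in NT. Os04t0179100-01, which lies in the cluster at a locus known for a momilactone A synthase, was at 9.95 and 10.4 FPKM in OsNAC10, against 32.4 and 23.1 FPKM in OsNAC6 and 29.4 and 31.6 FPKM in NT. Its neighbour Os04t0179200-01, annotated as similar to a secoisolariciresinol dehydrogenase, was at 4.89 and 6.39 FPKM in OsNAC10, against 24.4 and 14.1 FPKM in OsNAC6 and 28.2 and 31.6 FPKM in NT. Os04t0180500-00, a hypothetical protein that ends the run, was at 2.43 and 3.15 FPKM in OsNAC10, against 10.8 and 9.52 FPKM in OsNAC6. The 2 tested transcripts beyond it were not called, and neither was Os04t0178400-01 inside the region, at 3.65 and 3.64 FPKM in OsNAC10, against 4.92 and 4.42 FPKM in OsNAC6 and 13.8 and 15.6 FPKM in NT.

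Elsewhere, an ent-kaurene oxidase-like transcript (Os06t0569500-01) was at 0.967 and 1.01 FPKM in OsNAC10, against 3.61 and 2.98 FPKM in OsNAC6 and 13.5 and 14.5 FPKM in NT. An ent-kaurene synthase-like transcript (Os02t0570400-01) was at 1.02 and 0.980 FPKM in OsNAC10, against 2.56 and 2.58 FPKM in OsNAC6 and 13.6 and 15.1 FPKM in NT. In both, either transgenic line was several-fold below NT, with OsNAC10 the lower of the 2.

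**Figure D5:**
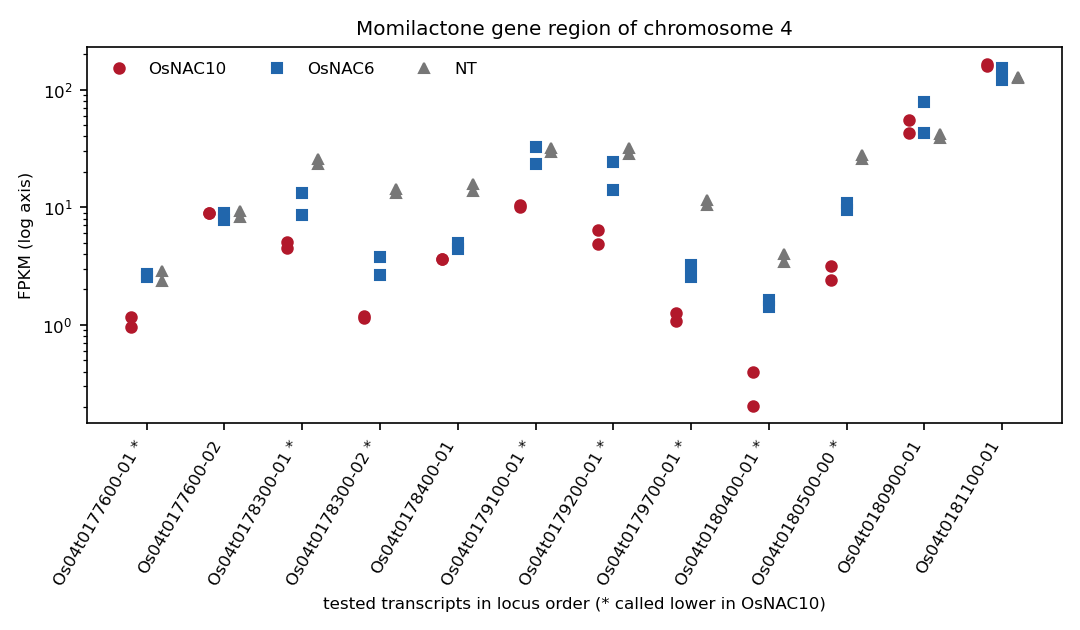
FPKM per library (log axis) of the 12 tested transcripts between Os04t0177600-01 and Os04t0181100-01 on chromosome 4, in locus order. The 8 transcripts with an asterisk were called lower in OsNAC10 than in OsNAC6, and the transcripts at the right end were not called.

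Jasmonate is the lipid-derived hormone of wounding and defence, made through lipoxygenases and damped by Tify (JAZ) repressors, which it induces. Of 46 tested transcripts of its synthesis and signalling, 8 (17.4%) were called lower in OsNAC10 and none higher, with a median log2 difference of -0.17 (16 lower and 2 higher at an unadjusted limma p under 0.05). The Tify gene Os03t0180900-01 had the largest difference, at 5.41 and 8.10 FPKM in OsNAC10, against 28.8 and 30.5 FPKM in OsNAC6 and 45.7 and 45.6 FPKM in NT (log2 -2.004 ± 0.15, SE, limma adjusted p = 0.000502). Another Tify gene, Os09t0439200-01, was at 3.16 and 2.83 FPKM in OsNAC10, against 8.87 and 7.65 FPKM in OsNAC6. A lipoxygenase transcript (Os10t0361000-01) was at 4.76 and 4.79 FPKM in OsNAC10, against 18.4 and 10.2 FPKM in OsNAC6 and 34.9 and 40.9 FPKM in NT. OsNAC10 was the lowest of the 3 genotypes in each of these 3. The count of 8 became 2, 3, 5 and 12 without OsNAC10 replicate 1, OsNAC10 replicate 2, OsNAC6 replicate 1 and OsNAC6 replicate 2, and 1 with the 4 libraries fitted alone.

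WRKY factors are DNA-binding proteins, many of them in defence signalling. Of 87 tested, 12 (13.8%) were called lower and 1 higher in OsNAC10, with a median log2 difference of -0.19. WRKY62 (Os09t0417800-01), a defence regulator, was at 28.9 and 31.0 FPKM in OsNAC10, against 73.2 and 50.6 FPKM in OsNAC6 and 51.0 and 54.2 FPKM in NT, a call made in 1 of the 4 fits without a library. WRKY45 (Os05t0322900-02), which acts in salicylic acid signalling in rice, was at 18.9 and 18.2 FPKM in OsNAC10, against 33.6 and 27.75 FPKM in OsNAC6. Firmer by that measure was Os02t0181300-01, called in all 4 fits, at 31.6 and 29.9 FPKM in OsNAC10, against 61.7 and 53.8 FPKM in OsNAC6 and 111.5 and 117 FPKM in NT. A more abundant WRKY45 transcript, Os05t0322900-01, was below the fold limit and not called (log2 -0.57). It was at 53.4 and 58.6 FPKM in OsNAC10, against 80.1 and 86.8 FPKM in OsNAC6. The member called higher, Os05t0129800-01, was at 1.09 and 1.07 FPKM in OsNAC10, against 0.121 and 0.353 FPKM in OsNAC6. Leaving out single libraries gave 5 lower calls without either OsNAC10 library, 8 without OsNAC6 replicate 1 and 17 without OsNAC6 replicate 2, and with the 4 libraries fitted alone none was called.

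Chitinases and pathogenesis-related proteins attack fungal walls or are induced by infection. Of 83 tested transcripts, 12 (14.5%) were called lower and 3 higher, with a median log2 difference of -0.23. The class III chitinase Os11t0700900-02 was at 11.4 and 9.94 FPKM in OsNAC10, against 70.0 and 46.95 FPKM in OsNAC6 and 45.5 and 44.1 FPKM in NT (log2 -2.32 ± 0.18, SE, limma adjusted p = 0.000503). The abundant thaumatin-like transcript Os03t0663400-02 was at 71.3 and 88.8 FPKM in OsNAC10, against 339 and 234 FPKM in OsNAC6 and 50.5 and 52.7 FPKM in NT. Here NT stood with OsNAC10, whereas for the chitinase it stood with OsNAC6. In the other direction, Os12t0628600-01, also thaumatin-like, was at 20.1 and 21.75 FPKM in OsNAC10, against 10.04 and 8.95 FPKM in OsNAC6 and 118 and 124 FPKM in NT. Leaving out single libraries gave 8 to 19 lower calls, 19 of them without OsNAC6 replicate 2, and with the 4 libraries fitted alone 2 were called lower. Thionins are small antimicrobial peptides, and among transcripts outside the list the thionin-like Os07t0429700-01 was at 870 and 1015 FPKM in OsNAC10, against 3011 and 2538 FPKM in OsNAC6 and 1106 and 1186 FPKM in NT. Thionin-like copies lie side by side on chromosome 7, and reads may be shared between them.

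Glutathione S-transferases join glutathione to toxic compounds. Of 53 tested, 7 (13.2%) were called lower and none higher (20 and 3 at an unadjusted limma p under 0.05), but 1 was called without either OsNAC10 library, 2 without OsNAC6 replicate 1 and 16 without OsNAC6 replicate 2. With the 4 libraries fitted alone 1 was called. The member called in every fit was Os10t0530900-01, similar to GST 30, at 26.4 and 28.7 FPKM in OsNAC10, against 91.98 and 84.3 FPKM in OsNAC6 and 65.9 and 69.9 FPKM in NT. Cytochromes P450 are oxygenases of hormone and defence metabolism. Of 194 tested, 16 (8.25%) were called lower and 1 higher, with a median log2 difference of -0.06, close to that of all transcripts. Besides Os02t0503900-01 named above, Os08t0508000-01 was at 0.302 and 0.503 FPKM in OsNAC10, against 8.50 and 6.31 FPKM in OsNAC6 and 2.77 and 3.01 FPKM in NT. Leaving out single libraries gave 8 to 28 lower P450 calls, 28 of them without OsNAC6 replicate 2, and the 4 libraries alone gave 3.

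Roots under water lack oxygen and turn to fermentation, in which alcohol dehydrogenase regenerates NAD+. Of 14 tested transcripts of anaerobic metabolism, the 2 called lower were both transcripts of alcohol dehydrogenase 1 (Os11g0210300), and none was called higher. At an unadjusted limma p under 0.05, 4 were lower and none higher. Os11t0210300-02 was at 39.2 and 41.05 FPKM in OsNAC10, against 124.5 and 108.6 FPKM in OsNAC6 and 215 and 224 FPKM in NT (log2 -1.51 ± 0.105, SE, limma adjusted p = 0.000341). Os11t0210300-01 was at 18.85 and 17.0 FPKM in OsNAC10, against 46.2 and 39.6 FPKM in OsNAC6 and 97.65 and 104.4 FPKM in NT. OsNAC10 was lowest and NT highest in both, with no overlap, and both were called whichever library was left out. With the 4 libraries fitted alone 1 was called. The other members of the list were not called, and its median was -0.06.

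Iron-related and phosphate-related transporters gave 1 call each. Nicotianamine is the metal chelator that carries iron through the plant, and of 9 tested transcripts of its synthesis and of iron uptake, 1 was called lower. This was Os02t0649900-00 (OsYSL2), a transporter of iron-nicotianamine, at 36.3 and 35.7 FPKM in OsNAC10, against 81.5 and 75.65 FPKM in OsNAC6 and 60.6 and 62.7 FPKM in NT (log2 -1.10 ± 0.067, SE, limma adjusted p = 0.000186). Both OsNAC10 libraries lay below both OsNAC6 libraries in 6 of the 9, where the share of all tested transcripts was 24.6%. The list median was log2 -0.45. It depended on the OsNAC6 library, at -0.25 without OsNAC6 replicate 1 and -0.65 without OsNAC6 replicate 2. Among 28 phosphate-related transcripts, the SPX protein Os02t0202200-01, of a family that senses phosphate status, was at 0.206 and 0.442 FPKM in OsNAC10, against 6.14 and 6.80 FPKM in OsNAC6 and 8.87 and 8.50 FPKM in NT. Of 41 transcripts of nitrate and ammonium transport and assimilation, 3 were called lower and 1 higher. A nitrite reductase transcript (Os02t0765900-00) was at 5.80 and 5.87 FPKM in OsNAC10, against 19.6 and 12.6 FPKM in OsNAC6 and 1.49 and 1.64 FPKM in NT, so that here both lines stood above NT.

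Of the wall-related lists, some were near the background, while lipid transfer and germin-like proteins exceeded it in both directions. Class III peroxidases, which cross-link walls and lignin, had 4 of 121 called higher and 5 lower. Os07t0677300-01 was at 163 and 164 FPKM in OsNAC10, against 59.8 and 40.2 FPKM in OsNAC6 and 133 and 139 FPKM in NT, and Os02t0236600-01 was at 183 and 188 FPKM in OsNAC10, against 78.4 and 85.4 FPKM in OsNAC6 and 117 and 114 FPKM in NT. Without OsNAC6 replicate 2 the lower calls rose to 21. Expansins and xyloglucan endotransglucosylases, which loosen walls, had 1 of 65 called higher and 4 lower, and cellulose synthases and laccases had 1 of 48 in each direction. None of the 38 dirigent and Casparian strip transcripts, which serve the lignin barriers of the endodermis, was called by limma, with 4 higher and 5 lower at an unadjusted p under 0.05, near the shares of all transcripts. Without OsNAC6 replicate 2 there were 2 calls in each direction. Lipid transfer proteins had 3 of 45 (6.67%) called higher and 8 (17.8%) lower, with a median log2 difference of 0.02. With the 4 libraries fitted alone, 1 of them was called higher and 2 lower. Germin-like proteins had 1 of 19 (5.26%) called higher and 3 (15.8%) lower, with a median of -0.06. The shares of all tested transcripts were 1.15% and 2.32%. The higher one was germin-like protein 8-12 (Os08t0231400-01). It was at 261 and 257 FPKM in OsNAC10, against 134 and 155.5 FPKM in OsNAC6 and 253 and 253 FPKM in NT.

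Among regulators, auxin-related transcripts had 3 of 147 called higher and 4 lower. Auxin efflux carriers move the hormone out of cells and set its direction, and of the 3 called, 2 were lower and 1 higher in OsNAC10. Os09t0491740-01 was at 11.8 and 12.7 FPKM in OsNAC10, against 43.7 and 35.0 FPKM in OsNAC6 and 17.1 and 17.95 FPKM in NT. Os09t0554300-01 was at 5.30 and 5.32 FPKM in OsNAC10, against 16.0 and 11.8 FPKM in OsNAC6 and 6.88 and 7.80 FPKM in NT. The higher one, Os08t0529000-01, similar to component 1, was at 4.96 and 4.99 FPKM in OsNAC10, against 2.26 and 2.64 FPKM in OsNAC6 and 11.4 and 12.3 FPKM in NT. AP2/ERF factors, many of which respond to ethylene, had 2 of 88 called higher and 8 lower, and NAC factors had 3 of 70 called higher and 6 lower, the OsNAC6 gene among the lower ones. Os08t0474000-01, a RAP2-like factor, was at 0.628 and 0.707 FPKM in OsNAC10, against 4.39 and 2.82 FPKM in OsNAC6 and 12.8 and 14.15 FPKM in NT. Ethylene response factor 2 (Os09t0434500-01) went the other way, at 183 and 200.5 FPKM in OsNAC10, against 117 and 94.6 FPKM in OsNAC6 and 227 and 232 FPKM in NT.

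Few calls fell on lists of general cell function. Among 275 transcripts of cytosolic ribosomal proteins, both OsNAC10 libraries lay above both OsNAC6 libraries in 18 and below in 128. The shares of all tested transcripts were 22.2% and 24.6%. At an unadjusted limma p under 0.05, 4 were higher and 48 lower, where the shares of all tested transcripts were 9.24% and 11.9%. The list thus leaned to lower values in OsNAC10, by small amounts. None of the 275 was called by limma, and their median log2 difference was -0.11. Without OsNAC6 replicate 2, 4 of them were called higher and 19 lower. Heat shock proteins had 5 of 191 called lower, of which 3 were DnaJ copies of nearly equal values that cannot be told apart, and the small heat shock protein 18.0 (Os03t0267000-00) was at 4.17 and 4.67 FPKM in OsNAC10, against 15.3 and 12.6 FPKM in OsNAC6 and 19.8 and 19.1 FPKM in NT. Histones and cyclins had 1 of 84 called lower. LEA proteins protect cells during drying, and 1 of 24 was called: Os01t0314800-01, at 42.1 and 46.85 FPKM in OsNAC10, against 161 and 133 FPKM in OsNAC6 and 125 and 139 FPKM in NT. Of 43 sugar transporters, 2 were called higher and 3 lower. Os03t0197100-01 was at 6.08 and 5.97 FPKM in OsNAC10, against 1.96 and 1.26 FPKM in OsNAC6 and 2.90 and 3.70 FPKM in NT. Subtilisin-like proteases had 2 of 46 called lower, and 1 of these, Os04t0526600-01, is an inhibitor of amylase and subtilisin that the word search took in, at 7.61 and 8.17 FPKM in OsNAC10, against 52.2 and 39.04 FPKM in OsNAC6.

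In the run of higher calls, 5 successive loci of chromosome 6, Os06g0513050 to Os06g0514100, all conserved hypothetical proteins, were called higher in OsNAC10. The most abundant was Os06t0513943-01, at 705.5 and 532 FPKM in OsNAC10, against 256 and 277 FPKM in OsNAC6 and 234 and 192.5 FPKM in NT (log2 1.198 ± 0.15, SE, limma adjusted p = 0.00508). In all 5, OsNAC10 replicate 1 was above replicate 2 and OsNAC6 replicate 2 above replicate 1, and reads may be shared between them.

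OsABI5 encodes a bZIP factor of abscisic acid signalling, and the study tested whether OsNAC6 and OsNAC10 activate its promoter. Primer pairs for it and for a pair of loci that differed in opposite directions between the lines are shown because they define what the study measured by qRT-PCR at these genes.
OsABI5 (Os01g0859300, chromosome 1) forward: gccaacggcgcatgatcaag
OsABI5 (Os01g0859300, chromosome 1) reverse: tcaccgctatgcccgtttca
OsXTH21 (Os07g0480800, chromosome 7) forward: gatgcgcttccacctctggt
OsXTH21 (Os07g0480800, chromosome 7) reverse: ccagatggagccgtacaccc
Os05g0247100 (chromosome 5) forward: ctgtccacggggctcttctc
Os05g0247100 (chromosome 5) reverse: ccgtccatccggtcttcttg

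The OsABI5 transcript (Os01t0859300-01) was at 0.514 and 0.509 FPKM in OsNAC10, against 2.36 and 2.05 FPKM in OsNAC6 and 1.26 and 1.44 FPKM in NT. Its log2 difference was -1.08 ± 0.11 (SE, limma adjusted p = 0.00192), and it was called whichever library was left out. OsNAC10 thus lay below NT and OsNAC6 above it, at low levels throughout. OsXTH21 (Os07t0480800-01), a xyloglucan endotransglucosylase, was at 18.6 and 20.0 FPKM in OsNAC10, against 31.6 and 32.05 FPKM in OsNAC6 and 17.0 and 16.4 FPKM in NT (log2 -0.69 ± 0.074, SE, limma adjusted p = 0.00231). Os05t0247100-01, a family 18 glycosyl hydrolase, was at 339 and 372 FPKM in OsNAC10, against 206 and 198.5 FPKM in OsNAC6 and 174 and 172 FPKM in NT (log2 0.81 ± 0.15, SE, limma adjusted p = 0.0221). OsXTH21 was highest in OsNAC6 and Os05t0247100-01 in OsNAC10, each by less than 2-fold. The other transcript of the latter locus, Os05t0247100-02, was also called higher (log2 1.02 ± 0.22, SE, limma adjusted p = 0.038). It was at 430 and 424 FPKM in OsNAC10, against 249 and 176 FPKM in OsNAC6 and 310 and 337 FPKM in NT. There OsNAC6 lay below NT.

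These loci belong to a set of 121 candidate targets. It was selected on these same samples and on binding data, so its directions are no independent evidence. Over all loci tested, 1.26% held a transcript called higher and 2.54% one called lower. Of 51 loci marked as raised in OsNAC10 only, 6 had a transcript called higher in OsNAC10 than in OsNAC6 and none lower, and 45 had a positive difference in their summed FPKM, with a median of 0.26 on the log2 scale. At an unadjusted limma p under 0.05, 24 were higher and 1 lower, where 10.0% of all loci held a higher and 13.0% a lower transcript. They included the channels TIP2;1 and TIP4;3 given above and the arabinogalactan-like OsFLA7 (Os01t0668100-01), at 487 and 453 FPKM in OsNAC10, against 273.5 and 320 FPKM in OsNAC6 and 260 and 237 FPKM in NT. Of 23 loci listed as raised in OsNAC6 only, 9 had a transcript called lower in OsNAC10 and none higher (16 and 2 at an unadjusted limma p under 0.05), with a median of -0.48. The glucanase OsGLN2 (Os01t0944700-01) had the largest difference of these, at 0.203 and 0.184 FPKM in OsNAC10, against 4.97 and 4.14 FPKM in OsNAC6 and 0.715 and 0.948 FPKM in NT. Of 9 loci listed as raised in both, none was called by limma (1 in each direction at an unadjusted p under 0.05), with a median of -0.01. The remaining 38 loci had no mark of raised expression for either line. Of these, 14 were called lower and none higher (24 and 1 at an unadjusted limma p under 0.05), with a median of -0.47. The study's marks join binding with expression. A locus without such a mark can therefore still lie above NT, as the next locus does in OsNAC6. Some of the 38 are marked in the study as bound by OsNAC6, OsNAC10 or both. Among the 38 loci, the GAST1-like OsGASR1 (Os03t0760800-01), of a gibberellin-regulated peptide family, was at 17.1 and 19.35 FPKM in OsNAC10, against 97.5 and 74.5 FPKM in OsNAC6 and 21.1 and 18.5 FPKM in NT. The basic helix-loop-helix factor OsbHLH045 (Os10t0376900-01) was at 4.27 and 4.42 FPKM in OsNAC10, against 12.6 and 11.0 FPKM in OsNAC6 and 5.54 and 5.44 FPKM in NT.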

How the data were processed

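Root RNA of 10 libraries, 2 for each of 5 genotypes, was sequenced by the authors, mapped with TopHat to the IRGSP-1.0 rice genome with RAP-DB transcripts, and deposited as FPKM per transcript (41635 transcripts, 37869 loci) after removal of adaptors, contaminants, PCR duplicates and low-quality reads. The authors' program that gave the FPKM values, and whether strand was used in counting, are not given in the sources used here. FPKM are not counts, so no count test was run. Low values lay near a common step for only 22.8% to 25.4% of transcripts in the 4 libraries, so whole reads were not recovered from the files. Read numbers per library are in the study's supplementary material and were not used here.

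Here log2(FPKM + 1) of the 33178 transcripts above 0 in all 10 libraries (29900 loci) was fitted with limma 3.58.1 in R 4.3.3, with 5 group means over the 10 libraries, a trended prior and the contrast OsNAC10 minus OsNAC6. Tests were two-sided, with Benjamini-Hochberg adjustment over all transcripts tested, and 8457 transcripts were left out for a zero. A call needed an adjusted p under 0.05 and 1.5-fold. The procedure was tested on simulated data. Transcripts of 1 locus (3235 loci have several) share reads. The sequences shown are primers from the study's supplementary material.

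The named transcripts are the NAC genes and OsABI5, the 12 largest calls in each direction with a named protein and a mean of at least 5 FPKM in the higher line, the 3 largest with any description, the 2 most abundant and the largest called members of each list, transcripts listed at 0 in one line, the longest runs of neighbouring calls and called target loci. Other list members, and the thionin-like transcript, were chosen after their values were seen. Of those the rule gives, the ones not called are mostly given in counts. The groups compared and all lists were chosen with earlier results of these data known. Alternatives were another pseudocount, other filters and scalings, other thresholds, sums per locus, other fits and leaving out each library. The reference annotation given could not be joined to the transcript identifiers and was not used here.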

Additional observations from a re-analysis of the deposited data

Results flagged for a closer look

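Transcripts listed at 0 in one line could not enter the fit, and the following were present in both libraries of the other line at a mean of at least 1 FPKM and above the NT libraries. They are given as mean FPKM in the line that held them, with no fold. Of 5 transcripts present in OsNAC10 and listed at 0 in both OsNAC6 libraries, 1 was above NT, Os09t0273600-00 at 2.03 FPKM. Of 15 present in OsNAC6 and listed at 0 in both OsNAC10 libraries, 13 were above NT. The 2 highest lie side by side on chromosome 3 among oxalate oxidase genes, whose germin-type products make hydrogen peroxide from oxalate. Os03t0693900-00 averaged 33.1 FPKM in OsNAC6, from 40.9 and 25.4 FPKM, and was at 0.1002 and 0.299 FPKM in NT. Os03t0694000-01 averaged 26.5 FPKM in OsNAC6, from 29.7 and 23.2 FPKM, and was at 0.139 and 0.179 FPKM in NT. These copies are much alike, so the division of reads between them is uncertain. Their neighbour OXO1 (Os03t0693700-01), which could be tested, was at 0.811 and 0.999 FPKM in OsNAC10, against 3.19 and 2.39 FPKM in OsNAC6 and 0.0413 and 0.212 FPKM in NT, and was called lower in OsNAC10 (log2 -0.99, limma adjusted p = 0.00697).

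Os12t0539800-00 averaged 12.4 FPKM and Os04t0208450-01 averaged 11.9 FPKM in OsNAC6. The other 9 were lower there: Os12t0435000-00 at 2.39 FPKM, Os12t0516000-00 at 2.22 FPKM, Os07t0517600-00 at 1.89 FPKM, Os08t0415400-00 at 1.78 FPKM, Os06t0570000-00 at 1.37 FPKM, Os01t0185000-00 at 1.25 FPKM, Os12t0115000-00 at 1.17 FPKM, Os03t0141100-01 at 1.17 FPKM and Os05t0208600-00 at 1.07 FPKM. Groups of 2 libraries are too small to test for a library far from its group.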

How the results depend on the processing

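The counts of 380 higher and 770 lower calls were within 1.5 times of these values with a pseudocount of 0.1, without the filter on zeros, with a minimum mean of 1 FPKM, after centring or quantile normalization, without the trend and with sums per locus. With only the 4 libraries of the 2 lines they were 36 and 109, with a threshold of 2-fold 107 and 335, and with an unadjusted p 687 and 1333. With library weights by group, added after seeing the data because the OsNAC6 replicates agreed less well, they were 211 and 444. Leaving out each library gave 131 to 1408 higher and 342 to 1967 lower calls. Replicate numbers are shared between the groups. Same-numbered deviations of OsNAC10 and OsNAC6 correlated at -0.0976, and pairing with the other groups was not checked this way. With the replicate number as a block the counts were 332 and 625. Limma adjusted p was then 0.0186 for the OsNAC10 gene, 0.0175 for the OsNAC6 gene and 0.00699 for OsABI5. The OsNAC6 gene lost its call after centring (log2 -0.57) and with the 4 libraries alone (-0.60, limma adjusted p = 0.166), and leaving out each library gave -0.72 to -0.49. The OsNAC10 gene lay between 0.47 and 0.59 without single libraries. OsABI5 lost its call with the 4 libraries alone (-1.08, limma adjusted p = 0.05002) and lay between -1.15 and -1.01 without single libraries. Fits of 4 libraries have fewer degrees of freedom, and other causes were not tested. The files hold no counts, so the counting error of low FPKM values could not be given.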

Other observations

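Some transcripts were present in OsNAC10 and NT roots and listed at 0 in both OsNAC6 libraries. A dirigent protein transcript (Os10t0334500-00), of the family that guides coupling of lignin precursors, was at 6.29 and 6.01 FPKM in OsNAC10, against 0 in both OsNAC6 libraries and 15.8 and 17.5 FPKM in NT. The BURP domain transcript Os05t0217800-01 was at 4.09 and 5.49 FPKM in OsNAC10, against 0 in both OsNAC6 libraries and 5.46 and 5.91 FPKM in NT. It lies beside Os05t0217700-01, which was called higher in OsNAC10.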
